A study of Mus musculus with 20 samples.

Results

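Glucose uptake, glycolysis, lactate handling and glycogen metabolism were followed through 33 named genes in the skeletal muscle of wild-type mice. The genes were chosen by name, as the steps of these pathways, with earlier results of these data known. All 33 were found among the 53465 gene identifiers of the deposited tables, and all 33 passed the low-count filter that left 15709 genes for testing. Poly(A) RNA was sequenced from trained males, non-trained males, trained females and non-trained females, with 5 libraries in each of the 4 groups. Every group carried the wild-type genotype, so the groups differed only in sex and in training as the labels state them. The labels used here do not name the muscle that was taken, the age of the mice, the form and length of the training, the time of collection or any batch. They also do not state that each library came from its own animal, and the p-values reflect the spread among libraries, which may be technical. The title of the series concerns mitochondrial remodelling of muscle with exercise, and the comparisons asked how these genes differed with training in each sex and between the sexes in each training state.

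As background, muscle takes glucose up through transporters of the Slc2a family and traps it as glucose 6-phosphate by hexokinase. That intermediate either runs down glycolysis to pyruvate, which lactate dehydrogenase turns into lactate for export, or is stored as glycogen by way of UDP-glucose, to be released again by glycogen phosphorylase during contraction. Fast fibres rely most on glycolysis and glycogen, while slow fibres burn fuel in mitochondria and are known to use other isozymes at several of these steps.

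The 20 libraries held 22043145 to 38483572 counts each, and the 33 genes took 3.77% to 5.13% of them. By group the share was 4.46 ± 0.159% in trained males, 4.49 ± 0.219% in non-trained males, 4.97 ± 0.185% in trained females and 4.55 ± 0.547% in non-trained females (SD, n = 5 each). The labelled tissue matched its markers, since 13 genes of fast fibres summed to between 124117 and 190126 CPM (counts after scaling of the libraries to 1 size) in every library. Markers of other cells were low beside them, with summed levels of 45.2 to 697 CPM for 10 macrophage genes and 132.7 to 523.2 CPM for 8 adipocyte genes. The sum of 6 erythroid genes ranged further, from 193.6 to 3754 CPM, and was highest in non-trained male library 4. Female non-trained library 1 stood apart, with the highest total and the fewest genes above 0, 18727 against 20644.5 at the median of all libraries, and results that rest on it are given with and without it. Female non-trained library 4 had the lowest total, the lowest share of counts in the 33 genes (3.77%) and the highest share from mitochondrial DNA (15.9%). In bulk tissue, fewer cells of a type and less RNA per cell cannot be told apart.

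Levels of different genes were compared in TPM, the deposited unit that accounts for transcript length. The glycolytic enzymes of muscle filled the top of the order. Aldoa, encoding aldolase, averaged 16117 TPM over the 20 libraries (range 12964 to 19340), and its lowest library lay above the highest library of every other gene of the list. Eno3, encoding the muscle enolase, came next at 4434 TPM (range 3490 to 5473), before Pygm, encoding the muscle glycogen phosphorylase, at 3679 TPM (range 2659 to 4589). The ranges of Eno3 and Pygm overlapped. Pkm (pyruvate kinase), Gapdh (glyceraldehyde phosphate dehydrogenase), Ldha (the muscle-type lactate dehydrogenase subunit), Pfkm (the muscle phosphofructokinase), Pgam2 (the muscle phosphoglycerate mutase) and Tpi1 (triosephosphate isomerase) followed with means between 1659 and 2197 TPM and overlapping ranges. Gpi1, Pgm1, Pgk1 and Ugp2 lay between 537.7 and 740.0 TPM.

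The subunits of phosphorylase kinase, which activates glycogen phosphorylase, stood far below their target, at 318.3 TPM for Phkg1, 255.0 TPM for Phka1 and 232.3 TPM for Phkb. The insulin-responsive glucose transporter gene Slc2a4 averaged 246.7 TPM, Gys1, encoding the muscle glycogen synthase, 182.1 TPM, and Gyg, encoding the glycogenin that primes a glycogen particle, 282.0 TPM. Pfkfb3 and Pfkfb1, which encode bifunctional enzymes that make and remove an activator of phosphofructokinase, were lower than these, at 128.5 and 37.3 TPM. So was Hk2, the main hexokinase gene of muscle, at 124.4 TPM. Gbe1, encoding the glycogen branching enzyme, stood at 55.4 TPM, Fbp2, encoding the muscle fructose bisphosphatase, at 50.2 TPM, and Gpd1, encoding the cytosolic glycerol phosphate dehydrogenase, at 270.7 TPM. The lowest of all were Pgm2 at 2.20 TPM, Hk1 at 4.40 TPM and Slc2a1 at 5.95 TPM.

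**Figure D1:**
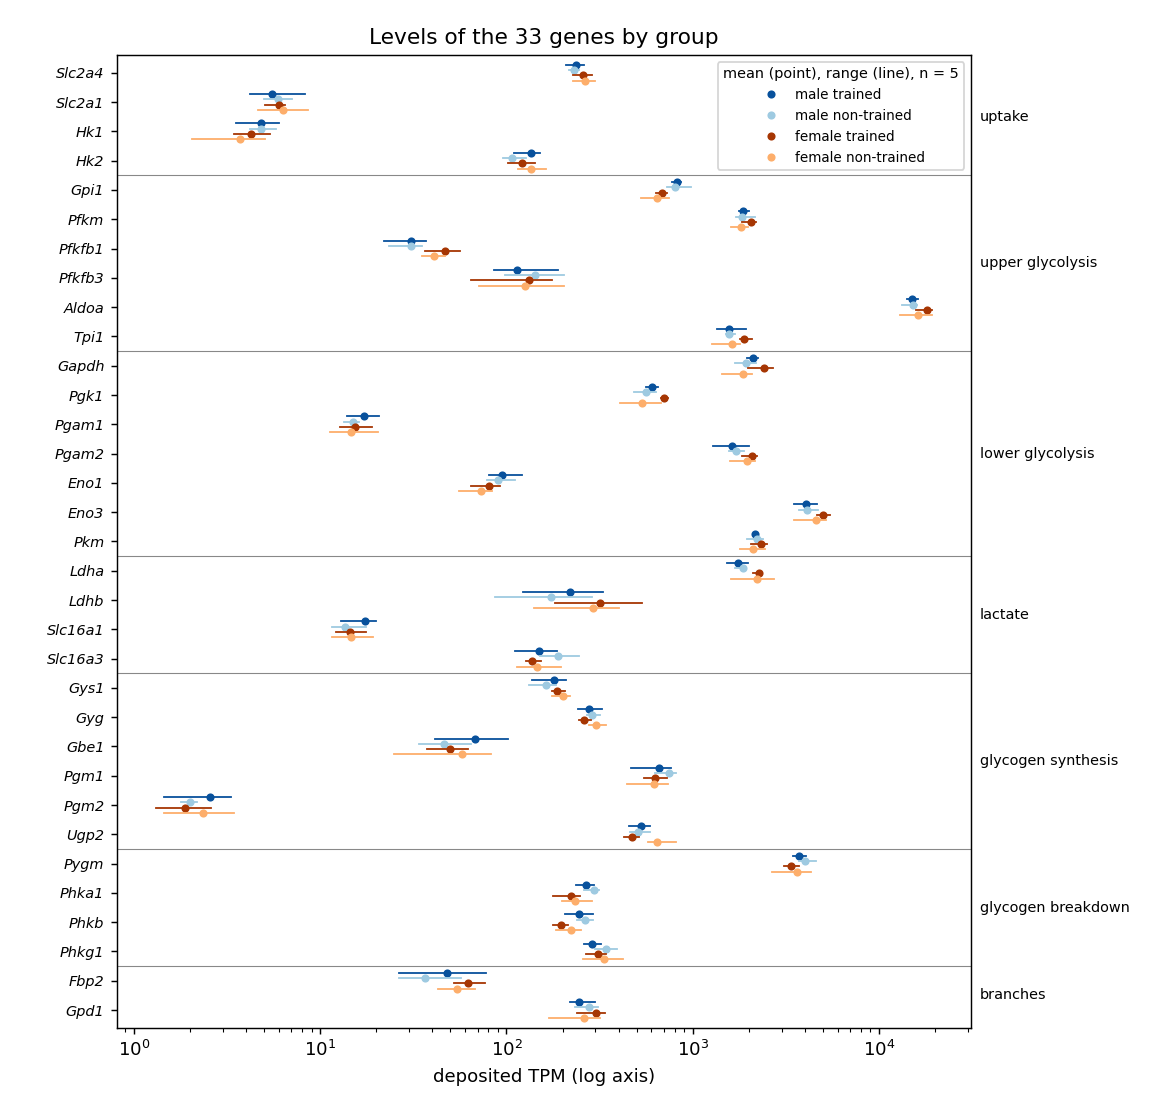
Deposited TPM of the 33 genes on a log axis, ordered by step, with the mean as a point and the range of the 5 libraries as a line for each group. Aldoa stands highest, at 16117 TPM over all libraries, and Pgm2 lowest, at 2.20 TPM.

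In the pairs compared here, of a muscle form and another form of the same step, the muscle form held most of the TPM. Pgam1 made up 0.538% to 1.45% of Pgam1 and Pgam2 together over the 20 libraries, Eno1 1.17% to 2.79% of the enolase pair, Hk1 1.39% to 5.43% of the hexokinase pair and Slc2a1 1.54% to 3.82% of the transporter pair with Slc2a4. Lactate genes were the most mixed. Ldhb, the heart-type subunit of lactate dehydrogenase, made up 4.29% to 20.2% of Ldha and Ldhb, and Slc16a1, encoding the lactate transporter MCT1 of oxidative fibres, made up 4.50% to 14.4% of its pair with Slc16a3, which encodes the MCT4 of glycolytic fibres. The Ldhb share averaged 11.1 ± 4.34% in trained males, 8.59 ± 4.18% in non-trained males, 12.2 ± 5.07% in trained females and 12.1 ± 5.73% in non-trained females (SD, n = 5 each), so the group means lay within the spread of the libraries.

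Training left no gene of the list past the threshold in either sex. By edgeR's quasi-likelihood test with Benjamini-Hochberg adjustment over all genes, at an adjusted p under 0.05, 0 of 33 passed in females, in males, in the mean of both sexes and in the training by sex interaction. Among all genes tested the share called was 0% in females, 0% in males, 0.0127% in the mean and 0% in the interaction. At an unadjusted p under 0.05, 4 of 33 passed in females, 3 in males, 5 in the mean and 2 in the interaction, where the shares of all genes were 8.57%, 4.3%, 9.17% and 4.18%. DESeq2, run as an alternative, called 1 member in females, Ugp2, and 0 in the other 3. The log2 differences, trained minus non-trained, spanned -0.41 to 0.44 in females and -0.31 to 0.58 in males, with medians of 0.09 and 0.04 against 0.00 for all genes in each. In no gene of the list were the 5 trained libraries separate from the 5 non-trained ones, in either sex, where 1.35% of all genes were in females and 1.09% in males.

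By step, the 13 genes from Gpi1 to Pkm all had a positive difference in trained females, from 0.09 (Pfkfb3) to 0.44 (Pgk1), and 10 of the 13 did in trained males. The 4 genes of glycogen breakdown all had a negative one in both sexes, none lower than -0.22. The 6 genes of glycogen synthesis had 1 positive difference in females and 4 in males. Many of these signs turned under at least 1 alternative: in females those of Pfkfb3, Pygm, Phka1, Phkg1, Gbe1, Gys1, Pgm1 and Pgm2, each without some single library, and in males those of Aldoa, Eno3, Pfkfb1, Pfkm, Pgam2, Pkm, Tpi1 and Gyg. None of these genes passed the test, and the counts are a description.

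The smallest unadjusted p in trained females belonged to Ugp2, Gapdh and Pgk1. Ugp2 encodes the UDP-glucose pyrophosphorylase that makes the sugar donor for glycogen. It had 835.3, 707.9, 748.4, 738.9 and 650.3 CPM in trained females, against 1064, 964.0, 843.6, 1183 and 819.7 CPM in non-trained females. Trained library 1 alone lay inside the range of the non-trained libraries. The difference was -0.41 (SE 0.10, adjusted p = 0.338 by edgeR's quasi-likelihood test), and DESeq2 gave an adjusted p of 0.0482.

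Gapdh had 2014, 1849, 2007, 1822 and 1604 CPM in trained females, against 1671, 1607, 1412, 1068 and 1315 CPM in non-trained females, with 4 trained libraries above all 5 non-trained ones and non-trained library 4 the lowest. The difference was 0.39 (SE 0.10, adjusted p = 0.338). Pgk1, encoding phosphoglycerate kinase, had 932.5, 908.7, 862.4, 815.3 and 846.8 CPM in trained females, against 878.7, 698.1, 591.6, 470.5 and 572.2 CPM in non-trained females. The high non-trained value came from the library that stood apart, and the other 4 lay below every trained library, with library 4 again the lowest. The difference was 0.44 (SE 0.12, adjusted p = 0.338), and without non-trained library 1 it was 0.58 (adjusted p = 0.081). Without that library Gapdh differed by 0.46 (adjusted p = 0.212) and Ugp2 by -0.38 (adjusted p = 0.263). Without non-trained library 4 the differences were 0.35 for Pgk1 (adjusted p = 0.326), 0.31 for Gapdh (adjusted p = 0.318) and -0.33 for Ugp2 (adjusted p = 0.338).

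Near-identical copies bear on Gapdh and Pgk1. Gapdh has 124 other annotated genes that match it at 95% or more over at least 200 nucleotides, and they held 7.06% to 8.59% of the summed counts. For Pgk1 there were 2 such genes, with 12.2% to 13.3% of the summed counts in trained males, 11.4% to 14.7% in non-trained males, 8.14% to 12.7% in trained females and 2.7% to 14.2% in non-trained females. The level of Pgk1 is uncertain to that extent.

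In trained males the smallest unadjusted p belonged to Hk2, Slc16a1 and Gbe1. Hk2 had 389.5, 499.8, 398.5, 461.7 and 468.7 CPM in trained males, against 357.2, 322.6, 361.4, 325.9 and 399.4 CPM in non-trained males, and only the 2 lowest trained libraries reached into the non-trained range. The difference was 0.33 (SE 0.10, adjusted p = 0.993 by edgeR's quasi-likelihood test). Slc16a1 had 58.5, 56.9, 34.4, 56.8 and 48.1 CPM in trained males, against 53.1, 33.1, 33.6, 38.7 and 35.7 CPM in non-trained males, so that 2 trained libraries lay inside the non-trained range and 3 non-trained ones inside the trained range. It differed by 0.39 (SE 0.16, adjusted p = 0.993). Gbe1 had 63.5, 119.5, 93.1, 98.5 and 160.4 CPM in trained males, against 79.2, 62.8, 54.9, 72.5 and 88.7 CPM in non-trained males. Here trained library 1 was low and trained library 5 high, and the difference was 0.58 (SE 0.26, adjusted p = 0.993).

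Averaged over both sexes, Pgk1 differed by 0.29 (SE 0.08, adjusted p = 0.323), Gapdh by 0.25 (SE 0.07, adjusted p = 0.344) and Eno1, encoding the widely expressed enolase, by 0.19 (SE 0.07, adjusted p = 0.412). Eno1 had 100.6, 80.6, 81.4, 74.7 and 88.3 CPM in trained males, against 77.1, 71.0, 68.4, 87.7 and 66.8 CPM in non-trained males. In females it had 58.9, 70.1, 83.8, 72.2 and 84.9 CPM in the trained, against 60.7, 64.5, 68.7, 63.2 and 69.3 CPM in the non-trained, and the groups overlapped in both sexes.

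The training difference in males minus that in females had its smallest unadjusted p for Ugp2 at 0.49 (SE 0.15), Hk2 at 0.43 (SE 0.15) and Gapdh at -0.29 (SE 0.15), each with an adjusted p of 0.999 by edgeR's quasi-likelihood test. Every trained male library stood above the mean of the non-trained males in Hk2, and every trained female library below the mean of the non-trained females, 406.7 CPM. In females Hk2 had 400.4, 393.6, 351.7, 396.6 and 352.6 CPM in the trained, against 413.9, 371.9, 358.4, 531.3 and 357.9 CPM in the non-trained. That mean was raised by non-trained library 4, and by the medians the order of the females was the other way, 393.6 CPM in the trained and 371.9 CPM in the non-trained. Without that library the difference between the sexes was 0.32 (adjusted p = 0.991), and the training difference of females turned to 0.01 from the -0.10 of all libraries. A difference between the sexes in the response to training was thus not shown for any of the 33 genes.

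No gene of the marker lists for fibre types and other cells passed for training, but some lists lay off 0. The 8 adipocyte genes had a median difference of 0.87 in females, with 7 above 0. Of the 8, 4 had an unadjusted p under 0.05, as 8.57% of all genes tested did. Their sums, 272.7 to 397.3 CPM in trained and 156.0 to 264.0 CPM in non-trained females, did not overlap. Of all single genes tested, 1.35% did not overlap in this comparison, and the sums of the adipocyte genes were not tested. In males the median of the adipocyte genes was -0.05. The 14 slow fibre genes had a median of 0.56 in males, with 12 above 0 and sums of 903.0 to 2325 CPM in trained and 464.9 to 2016 CPM in non-trained males, and of 0.07 in females. The 8 tendon genes had a median of -0.43 in males, with all 8 below 0, and of -0.10 in females. The 9 Schwann cell genes had a median difference of 1.04 in females, with sums of 83.9 to 337.8 CPM in trained and 46.8 to 175.5 CPM in non-trained females, and of -0.65 in males. The 6 erythroid genes had a median of -2.08 in males, with sums of 239.2 to 364.8 CPM in trained and 243.5 to 3754 CPM in non-trained males. Their part in the training values of the 33 genes was not tested.

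The sexes differed in 2 of the 33 genes among trained mice, and both were lower in males. Pfkfb1 fell to 0.619-fold of the female level and Ldha to 0.729-fold, and the other 31 did not pass. The 2 make 6.06% of the list, where 5.6% of all genes tested were called in this comparison and 2.22% were called lower. The 880 genes called split into 532 higher and 348 lower in males, or 832 higher and 213 lower of 1045 when libraries were scaled by size alone. The median difference over the 33 genes was -0.19 against 0.00 over all genes, with 14 genes above 0 and 19 below.

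Pfkfb1 (ENSMUSG00000025271, GRCm38 chromosome X, 150588229 to 150643878, plus strand) had 38.4, 35.2, 21.5, 35.1 and 31.7 CPM in trained males, against 55.1, 61.4, 54.4, 40.4 and 50.4 CPM in trained females. Every male library lay below every female one, with male library 3 the lowest and female library 4 nearest to the males. The log2 difference was -0.69 (SE 0.15, adjusted p = 0.0106 by edgeR's quasi-likelihood test). The call held with each of the 20 libraries left out in turn, at an adjusted p between 0.0080 and 0.0316. The annotated gene overlaps Apex2 on the opposite strand, which had 112.2 counts per library against 1190 for Pfkfb1, and the sources used here do not state whether counting used the strand.

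Ldha (ENSMUSG00000063229, GRCm38 chromosome 7, 46841475 to 46855627, plus strand) had 2040, 1884, 1591, 1816 and 1542 CPM in trained males, against 2601, 2237, 2607, 2412 and 2306 CPM in trained females. The 2 groups again did not overlap. The log2 difference was -0.46 (SE 0.13, adjusted p = 0.0438), close to the threshold. The call was lost when any 1 of 16 libraries was left out, in both sexes and both training states, with an adjusted p of up to 0.113 (without trained male library 3), and it held without non-trained female libraries 1, 4 and 5 and without trained male library 1.

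Complete separation of the groups was seen in 6 of the 33 genes in trained mice, all lower in males: Pfkfb1, Aldoa, Gapdh, Pgk1, Eno3 and Ldha. That is 18.2% of the list, where 3.46% of all genes tested lay wholly lower in males. The share of all genes wholly higher in males is not given here, so nothing is read from the lack of such genes in the list. The 4 that did not pass the test were singled out after their values were seen. Eno3 had 4365, 4007, 3295, 3895 and 3242 CPM in trained males, against 5518, 4532, 5171, 4824 and 4634 CPM in trained females, a difference of -0.39 (SE 0.12, adjusted p = 0.0564). Aldoa had 12096, 12642, 12946, 14313 and 12141 CPM in trained males, against 17575, 17260, 17139, 16069 and 14588 CPM in trained females, a difference of -0.37 (SE 0.12, adjusted p = 0.0644). In both, the lowest female library stood just above the highest male one. Gapdh had 1509, 1551, 1330, 1603 and 1488 CPM in trained males, against 2014, 1849, 2007, 1822 and 1604 CPM in trained females, a difference of -0.31 (SE 0.10, adjusted p = 0.0788). Its separation was bare, since male library 4 and female library 5 nearly met. Pgk1 had 774.0, 717.3, 637.8, 767.0 and 659.6 CPM in trained males, against 815.3 to 932.5 CPM in trained females, a difference of -0.30 (SE 0.12, adjusted p = 0.145). Pgam2 overlapped at 1 library and differed by -0.42 (SE 0.13, adjusted p = 0.0603).

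Summed over the 6 genes from Gpi1 to Tpi1, the trained males ranged from 17962 to 20850 CPM and the trained females from 20983 to 25075 CPM, of which Aldoa supplied most. The 7 genes from Gapdh to Pkm summed to 8877 to 10907 CPM in trained males and 11487 to 13298 CPM in trained females. Glycogen breakdown was not separate, at 8019 to 9306 CPM in trained males and 7202 to 9538 CPM in trained females. Some glycolytic genes pointed the other way: Gpi1, encoding glucose phosphate isomerase, at 0.17 (SE 0.10), Eno1 at 0.20 (SE 0.10) and Pgam1 at 0.06 (SE 0.12). Of glycogen breakdown, Phkb at 0.25 (SE 0.10), Phka1 at 0.20 (SE 0.11) and Pygm at 0.06 (SE 0.12) did so. In the other steps the largest were Gbe1 at 0.37 (SE 0.26) and Hk2 at 0.23 (SE 0.10). None of these passed the test.

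The number of members called in trained mice moved with the fit. It was 6 by DESeq2 (Aldoa, Eno3, Gapdh, Ldha, Pfkfb1 and Pgam2) and 6 with the trained groups alone in the fit (Pgk1 in place of Pgam2), all lower in males. Without non-trained female library 1, which is in neither group of this comparison, it was also 6. Most fits with 1 library left out called fewer members than the main fit. The number was 1 in 15 of these fits, 2 in 2 fits, 5 in 1 fit and 6 in 2 fits, including the fit just named.

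**Figure D2:**
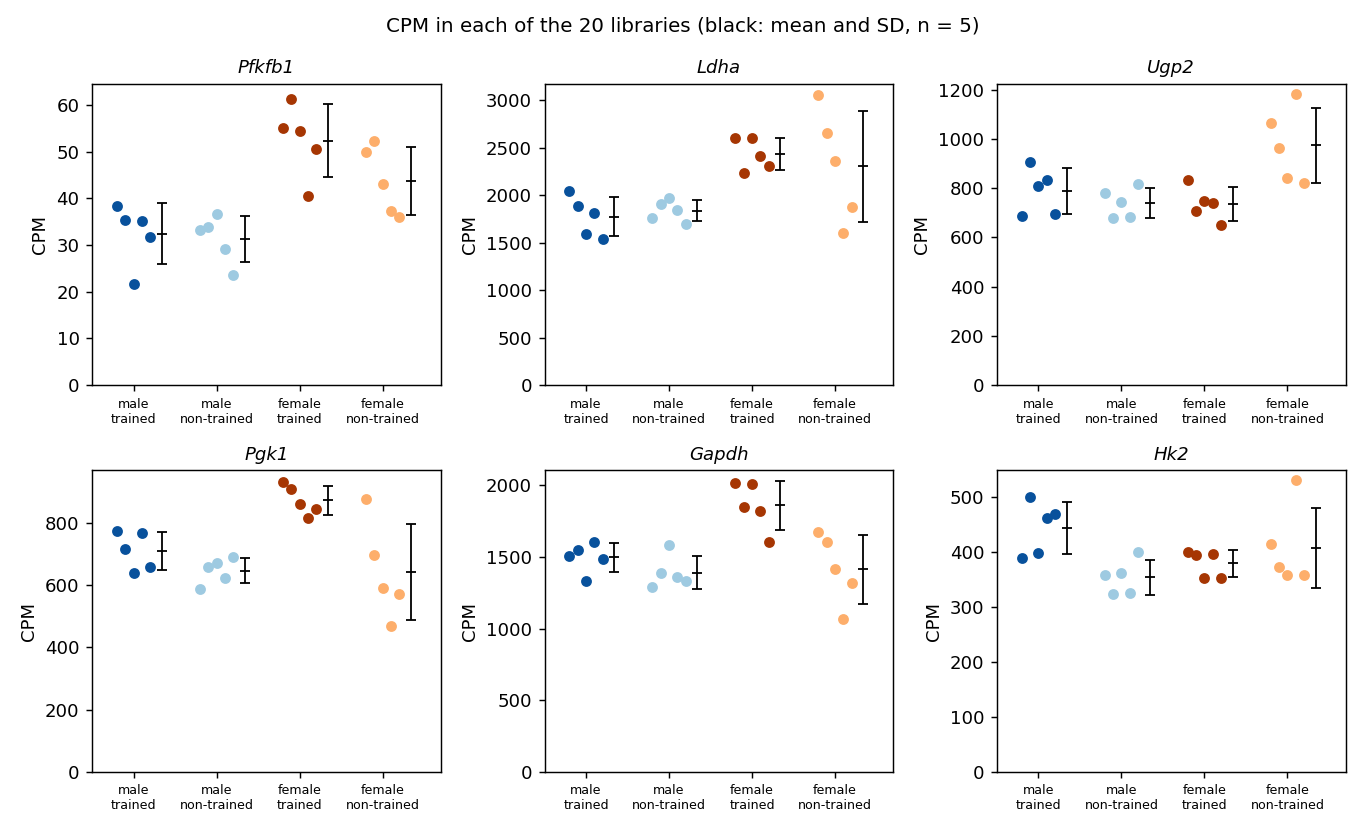
CPM in each library for 6 genes, with 1 point per library, axes from 0, and the mean and SD of the 5 libraries in black. Pfkfb1 and Ldha are lower in trained males than in every trained female library, Ugp2 is lower in non-trained males than in every non-trained female library, and non-trained female library 1, the first point of its group, is the highest of its group in Pgk1 at 878.7 CPM.

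Among non-trained mice 1 of the 33 genes differed between the sexes, Ugp2, which fell to 0.760-fold of the female level in males. That is 3.03% of the list, where 5.21% of all genes tested were called and 2.07% were called lower. The 818 genes called split into 493 higher and 325 lower in males, or 541 higher and 180 lower of 721 with scaling by size alone. The median over the list was -0.04 against 0.00 over all genes, with 12 above 0 and 21 below, and scaling by size alone turned it to 0.01 with 17 above 0.

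Ugp2 (ENSMUSG00000001891, GRCm38 chromosome 11, 21321138 to 21371201, minus strand) had 780.4, 679.1, 746.0, 683.4 and 816.1 CPM in non-trained males, against 1064, 964.0, 843.6, 1183 and 819.7 CPM in non-trained females. The groups did not overlap, though male library 5 and female library 5 nearly met, and 2.39% of all genes lay wholly lower in males here. The log2 difference was -0.40 (SE 0.10, adjusted p = 0.0301 by edgeR's quasi-likelihood test). In trained mice the sexes overlapped, and the difference was 0.10 (SE 0.10, adjusted p = 0.654); the change of the sex difference with training is the interaction given above, which did not pass. The non-trained call was lost with scaling by size alone (adjusted p = 0.0587), with the non-trained groups alone in the fit (adjusted p = 0.0797) and without any 1 of 6 libraries. These were non-trained male libraries 2 (0.0824), 3 (0.0606) and 4 (0.0760) and non-trained female libraries 1 (0.0648), 2 (0.0541) and 4 (0.0697), with the adjusted p in parentheses.

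Pfkfb1 and Ldha missed the threshold in non-trained mice by edgeR's quasi-likelihood test. Pfkfb1 had 33.2, 33.8, 36.6, 29.2 and 23.7 CPM in non-trained males, against 50.0, 52.3, 43.1, 37.2 and 36.0 CPM in non-trained females, where male library 3 exceeded the lowest female one. The difference was -0.48 (SE 0.15, adjusted p = 0.0645), while DESeq2 called it (-0.50, adjusted p = 0.0239). Ldha had 1760, 1908, 1975, 1846 and 1695 CPM in non-trained males, against 3054, 2650, 2358, 1598 and 1871 CPM in non-trained females, whose libraries spread widely. The difference was -0.33 (SE 0.13, adjusted p = 0.144), and -0.21 (adjusted p = 0.365) without non-trained female library 1, the highest of the 5.

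**Figure D3:**
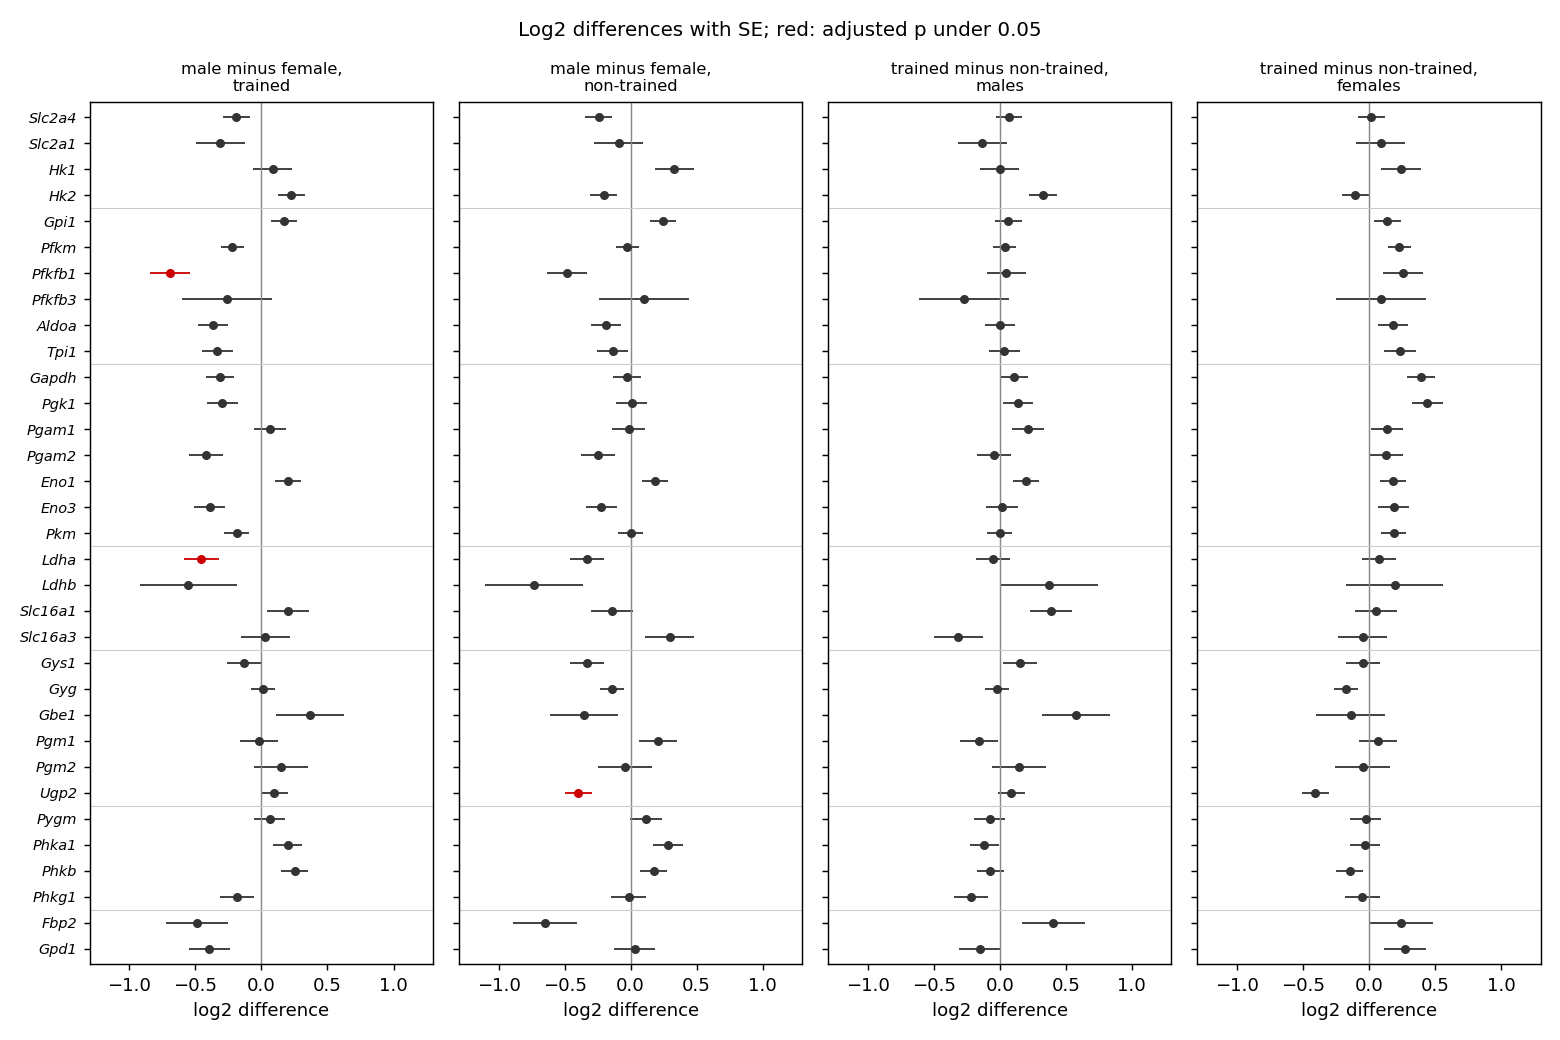
Log2 difference of each of the 33 genes with its SE in 4 comparisons, genes ordered by step, in red where the adjusted p is under 0.05. The 3 red points are Pfkfb1 (-0.69) and Ldha (-0.46) in trained mice and Ugp2 (-0.40) in non-trained mice.

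Fibre and cell markers moved with sex as well. In non-trained mice 6 of 14 slow fibre genes were called lower in males, where 2.07% of all genes tested were. Of the 14, 13 had a difference below 0 and 1 above, and the median was -1.64. In trained mice 1 of 14 was called lower, where 2.22% of all genes tested were. All 14 had a difference below 0, and the median was -1.31. Their summed level ran from 903.0 to 2325 CPM in trained males, 464.9 to 2016 CPM in non-trained males, 666.5 to 6809 CPM in trained females and 1349 to 5478 CPM in non-trained females. None of the 13 fast fibre genes passed in either comparison (medians -0.03 in non-trained and -0.13 in trained mice), and their sum ran from 143042 to 165179 CPM in trained males, 152425 to 182974 CPM in non-trained males, 147393 to 178133 CPM in trained females and 124117 to 190126 CPM in non-trained females.

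Of all 15709 genes tested, 532 were called higher in males in trained mice and 493 in non-trained mice. Of 10 macrophage genes, 6 were called higher in males in each training state, and all 10 had a difference above 0 in both. Their sum ran from 123.2 to 696.8 CPM in trained males, 153.6 to 361.8 CPM in non-trained males, 70.9 to 147.0 CPM in trained females and 45.2 to 134.9 CPM in non-trained females. Of 9 Schwann cell genes 2 were called lower in trained males, where 2.22% of all genes tested were, and all 9 had a difference below 0. Their sums were 97.8 to 127.6 CPM in trained males, against 83.9 to 337.8 CPM in trained females. Of 6 erythroid genes 2 were called higher in non-trained males, and all 6 had a difference above 0. Their sums were 243.5 to 3754 CPM in non-trained males, against 193.6 to 471.5 CPM in non-trained females. No gene of these 5 lists was at 0 in any library, and their part in the differences of the 33 genes was not tested.

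Ldhb, a lactate gene known from oxidative fibres, varied with the slow fibre level. Over the 20 libraries the log2 CPM of Ldhb rose with the mean log2 CPM of the 14 slow fibre genes, with a Pearson r of 0.862 (permutation p = 1e-05, the smallest that 100000 resamples can give, adjusted p = 6e-05 over 6 relations) and a Spearman rho of 0.863 (permutation p = 2e-05). Without the 2 libraries farthest from the median the r was 0.796. Within males r was 0.859 (n = 10, permutation p = 0.00247, adjusted p = 0.00634, rho 0.83). Within females r was 0.810 (n = 10, permutation p = 0.00317, adjusted p = 0.00634, rho 0.915). Without the 2 farthest libraries of the sex, r was 0.732 in males and 0.837 in females. Libraries share their scaling across genes, and no gene is on both sides of the relation.

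For Slc16a1 the Pearson r was 0.419 over all libraries (permutation p = 0.0671, adjusted p = 0.0671), 0.672 within males (permutation p = 0.0382, adjusted p = 0.0573) and 0.598 within females (permutation p = 0.0631, adjusted p = 0.0671), none past the threshold after adjustment. The Spearman rho was 0.471, 0.673 and 0.758, with an adjusted permutation p of 0.0393, 0.0393 and 0.0228. Without the 2 farthest libraries r was 0.225, 0.428 and 0.739, so Pearson's r over all libraries and within males depended on those libraries. Leaving them out also narrows the range of the slow fibre mean.

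**Figure D4:**
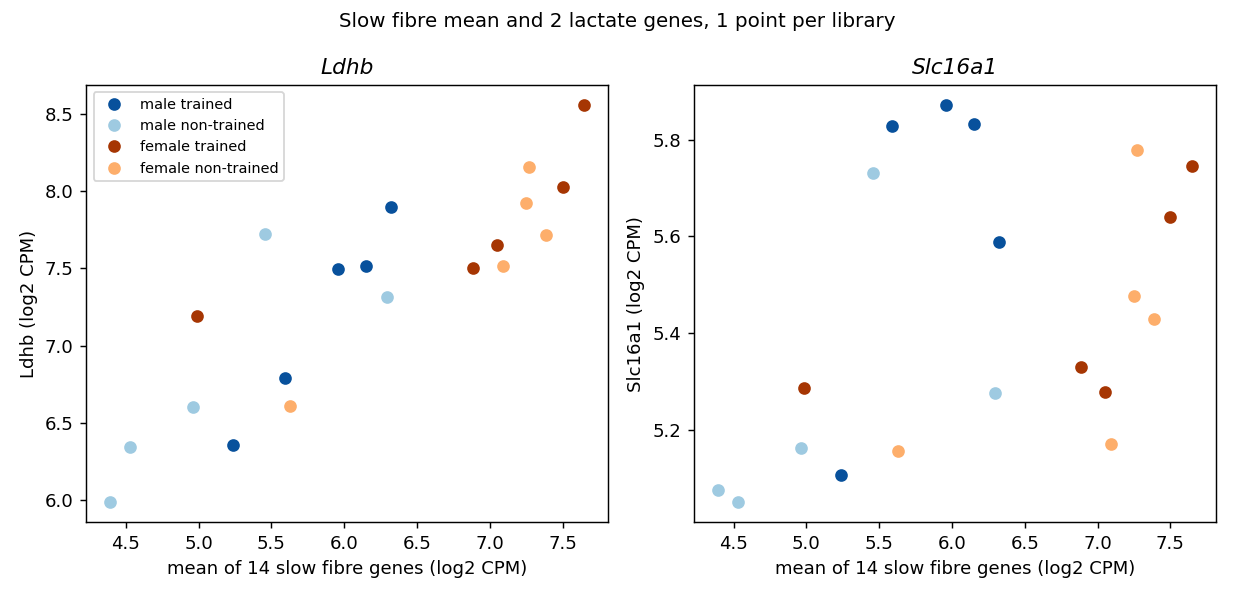
Log2 CPM of Ldhb (left) and Slc16a1 (right) against the mean log2 CPM of 14 slow fibre genes, 1 point per library, coloured by group. Ldhb follows the slow fibre mean (r = 0.862), while Slc16a1 does so less closely (r = 0.419).

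Ldhb itself did not differ between the groups beyond its wide spread. It had 180.4, 183.4, 81.9, 110.6 and 237.9 CPM in trained males, 211.5, 81.3, 63.4, 159.4 and 97.3 CPM in non-trained males, 200.8, 376.9, 146.3, 181.6 and 260.9 CPM in trained females and 210.0, 183.1, 97.8, 284.8 and 242.8 CPM in non-trained females. All 4 groups overlapped. The difference between males and females was -0.55 (SE 0.37, adjusted p = 0.427) in trained and -0.73 (SE 0.37, adjusted p = 0.258) in non-trained mice.

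Outside the 33 genes, transporter, glycogen and pyruvate genes of the same pathways also differed between the sexes. Of 91 listed genes 86 were tested, and 9 passed in each training state, 3 higher and 6 lower in males, beside the 5.6% of all genes called in trained and 5.21% in non-trained mice, while 0 passed for training in females, in males, in the mean or in the interaction. At an unadjusted p under 0.05 the training counts were 13, 6, 17 and 2 of the 86. These made 15.1%, 6.98%, 19.8% and 2.33%, where the shares of all genes were 8.57%, 4.3%, 9.17% and 4.18%. By list, the sex calls in non-trained mice were 2 of 19 other isozymes and transporters, 1 of 23 other glycogen genes, 2 of 14 genes of pyruvate entry, 3 of 22 genes of insulin and glucose signalling and 1 of 8 pentose phosphate genes. In trained mice the counts were 2, 2, 2, 2 and 1 in the same order of lists.

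Slc2a3, encoding the glucose transporter GLUT3, was higher in males in both states. It had 16.5, 11.2, 11.7, 11.5 and 9.10 CPM in trained males, against 3.37, 4.62, 3.90, 2.15 and 2.34 CPM in trained females, a difference of 1.87 (SE 0.34, adjusted p = 0.0032 by edgeR's quasi-likelihood test). In non-trained mice it had 13.8, 21.9, 28.1, 17.9 and 14.2 CPM in males, against 10.1, 4.80, 2.88, 2.20 and 4.38 CPM in females, a difference of 1.96 (SE 0.33, adjusted p = 0.0018). The sexes did not overlap in either state. Macrophage markers were higher in males too, and their part in the level of Slc2a3 was not tested. H6pd, encoding the hexose phosphate dehydrogenase of the endoplasmic reticulum, was also higher in males, by 0.60 (SE 0.13) in trained and 0.66 (SE 0.13) in non-trained mice. The calls of Slc2a3 and H6pd held under every alternative run.

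Among the targeting subunits that bring protein phosphatase 1 to glycogen, Ppp1r3c and Ppp1r3d were lower in males. Ppp1r3c had 418.3, 398.5, 417.2, 628.6 and 374.1 CPM in trained males, against 888.3, 902.5, 755.7, 686.0 and 587.5 CPM in trained females, where male library 4 alone reached into the female range. The difference was -0.77 (SE 0.20, adjusted p = 0.0253) in trained mice, and -0.48 (SE 0.20, adjusted p = 0.153) in non-trained mice. Ppp1r3d differed by -0.93 (SE 0.25, adjusted p = 0.0323) in trained and by -1.20 (SE 0.25, adjusted p = 0.0079) in non-trained mice, and averaged 3.74 ± 1.02 CPM in trained males and 7.12 ± 1.09 CPM in trained females (SD, n = 5 each). Its non-trained call held under every alternative run. The trained call of Ppp1r3c was lost without the low-count filter and without any 1 of trained male libraries 1, 2, 3 and 5 and trained female libraries 1 and 2, at an adjusted p of up to 0.0715. That of Ppp1r3d was lost with scaling by size alone and without any 1 of trained male libraries 1, 2, 4 and 5 and trained female libraries 2 to 5, at an adjusted p of up to 0.0817.

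At the gate from pyruvate to the mitochondrion, genes of opposing enzymes were both lower in males. Pdk1, encoding a kinase that switches pyruvate dehydrogenase off, averaged 65.2 ± 6.93 CPM in trained males and 84.8 ± 8.90 CPM in trained females (SD, n = 5 each), a difference of -0.38 (SE 0.09), and differed by -0.38 (SE 0.09) in non-trained mice. Pdp2, encoding a phosphatase that switches it on, averaged 4.76 ± 0.902 CPM in non-trained males and 7.36 ± 0.485 CPM in non-trained females, a difference of -0.63 (SE 0.15). Mlxipl, encoding the glucose-responsive transcription factor ChREBP, was lower in trained males by -0.51 (SE 0.12). The isozyme genes Aldoc and Hk3 were higher in non-trained males (2.61, SE 0.62) and in trained males (2.51, SE 0.66), but averaged 0.486 and 1.68 CPM there. The calls of Pdp2 in non-trained mice and of Mlxipl in trained mice held under every alternative run. That of Aldoc in non-trained mice was not lost in the 26 of 28 alternatives that kept the gene, and the rest filtered it out. That of Pdk1 was lost with scaling by size alone in both states, without trained male library 3 or trained female library 2 in trained mice, and without non-trained male library 2 or 3 in non-trained mice. That of Hk3 was lost by limma-voom and without trained male library 3 or trained female library 1, 2 or 4.

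The promoters of the 3 genes that passed a test are shown with 2 motifs known from glycolytic promoters, of which Ldha and Ugp2 hold both and Pfkfb1 holds 1. They come from RefSeq (GRCm38.p6), 250 bases before to 50 after the RefSeq start that lies nearest to the start of the gene in GENCODE, 5′ to 3′ on the gene's strand. Capitals mark ACGTG, the core bound by hypoxia-inducible factors, and GGGCGG, the GC box bound by Sp1, each on either strand. Pfkfb1 (chrX:150587993-150588292, plus strand, 1 of 4 windows of the gene, 14 bases from that start) holds 0 ACGTG and 2 GGGCGG. Ldha (chr7:46845554-46845853, plus strand, 1 of 2 windows, 4329 bases inside the annotated gene) holds 5 ACGTG, counting both strands of 2 palindromic CACGTG, and 3 GGGCGG. Ugp2 (chr11:21371218-21371517, minus strand, 1 of 2 windows, 66 bases from that start) holds 1 of each.
Pfkfb1: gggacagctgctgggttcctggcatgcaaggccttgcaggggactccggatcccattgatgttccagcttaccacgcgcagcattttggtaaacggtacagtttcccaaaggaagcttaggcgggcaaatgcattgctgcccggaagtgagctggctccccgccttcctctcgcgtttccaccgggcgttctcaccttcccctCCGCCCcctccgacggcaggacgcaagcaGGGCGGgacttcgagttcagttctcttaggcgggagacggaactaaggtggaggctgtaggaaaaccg
Ldha: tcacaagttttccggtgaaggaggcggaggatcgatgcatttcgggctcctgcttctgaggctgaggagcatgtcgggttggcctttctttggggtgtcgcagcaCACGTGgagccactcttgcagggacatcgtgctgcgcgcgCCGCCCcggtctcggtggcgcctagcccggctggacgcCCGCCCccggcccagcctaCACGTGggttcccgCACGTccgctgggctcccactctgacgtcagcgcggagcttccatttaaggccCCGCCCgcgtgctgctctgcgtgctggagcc
Ugp2: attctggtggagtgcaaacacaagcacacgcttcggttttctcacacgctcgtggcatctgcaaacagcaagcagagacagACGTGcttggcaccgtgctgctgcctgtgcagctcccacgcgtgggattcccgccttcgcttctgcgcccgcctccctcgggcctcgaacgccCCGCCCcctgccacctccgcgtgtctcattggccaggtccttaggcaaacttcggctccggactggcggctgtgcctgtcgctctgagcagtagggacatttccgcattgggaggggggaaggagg

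Promoter windows were found for 31 of the 33 genes, the others being Gpd1 and Slc2a4, and the window nearest to the GENCODE start was counted for each gene, here and in the background. ACGTG stood in 16 of the 31 (51.6%), where 20.5% of the windows of 20427 genes held it. The E-box CACGTG, which contains ACGTG, stood in 5 (16.1% against 7.69%), GGGCGG in 20 (64.5% against 42.9%) and TATAAA in 2 (6.45% against 13.2%). Of the 6 genes whose trained males and females did not overlap, ACGTG stood in Gapdh, Pgk1 and Ldha and in none of those counted for Aldoa, Eno3 and Pfkfb1. These matches describe the letters of the windows, and not binding.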

How the data were processed

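RNA was extracted with RNeasy columns, poly(A)-selected, made into strand-directional libraries (NEBNext Ultra II) and sequenced on a NextSeq machine, as the labels' protocols say. The authors deposited RSEM expected counts, TPM and FPKM per gene and library, per the file headers. FPKM was not used, and TPM, which keeps no depth, served only for levels between genes. Per the submitters' processing notes, the GRCm38 build was used with RSEM 1.3.1 and STAR 2.5.1, and limma, edgeR, cutadapt and Trim Galore are also listed, with no role stated. The release of the annotation, and whether counting used the strand, are not given in the sources. Symbols and coordinates came from GENCODE M21 (GRCm38), which matched 53360 of 53465 identifiers. The unmatched ones held 0.00673% of the counts. RSEM divides reads among similar genes by estimation, so levels of genes with near-identical copies are uncertain. Of 2 identifiers named Aldoa, the one with the higher counts was used.

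Expected counts were rounded, filtered with filterByExpr (minimum count 10) and scaled by TMM. The 20 libraries were fitted with 1 coefficient for each of the 4 groups (16 residual degrees of freedom) by edgeR 4.0.16 (robust quasi-likelihood) in R 4.3.3, with Benjamini-Hochberg adjustment over 15709 genes. SE is the log2 difference divided by the square root of F. Log2 CPM used a prior count of 2. Alternatives were DESeq2 1.42.0, limma-voom (limma 3.58.1), other scalings and filters, the compared groups alone and each library left out. The procedure was tested on simulated counts. Replicate numbers follow the order of deposition and pair nothing.

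The 33 genes, the other pathway and marker lists and the tests were chosen with earlier results of these data known. Members past the threshold, or the 3 with the smallest unadjusted p where none passed, are given in full, and at most 6 other pathway genes per comparison, by adjusted p. Each library held 22043145 to 38483572 counts, and Pgm2, the lowest of the 33 genes, averaged 73.7 of them.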

Additional observations from a re-analysis of the deposited data

Results flagged for a closer look

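In 3 of 132 sets of 5 libraries, 33 genes in 4 groups, 1 library lay far from the other 4 by Dixon's criterion, which chance meets in about 1 in 20 sets. Pfkfb3, the gene of an enzyme that makes the activator of phosphofructokinase, stood at 539.4 CPM in trained male library 4, the next highest of that group being 277.7 CPM. In trained female library 2 it stood at 176.8 CPM, the next lowest being 399.1 CPM. Slc16a1, the MCT1 gene, stood at 53.1 CPM in non-trained male library 1, the next highest being 38.7 CPM. Pfkfb3 was the most variable gene of its step in all groups, and its difference between trained and non-trained mice was -0.27 (SE 0.34) in males and 0.09 (SE 0.34) in females.

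For Hk2, the muscle hexokinase gene, trained males and trained females lay on opposite sides of the non-trained mean of their sex. The 33 genes were searched for this pattern and Hk2 alone showed it. The share of all genes with the pattern was not counted. All 5 trained male libraries stood above the mean of the non-trained males, and all 5 trained female libraries stood below the mean of the non-trained females, which non-trained library 4 raised: the female medians were 393.6 CPM in the trained and 371.9 CPM in the non-trained. The difference of the differences was 0.43 (SE 0.15), with an adjusted p of 0.999 by edgeR's quasi-likelihood test, so it did not pass, and it was 0.32 without that library.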

How the results depend on the processing

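Of the 18 gene and comparison pairs of the list given in full and the 6 relations to the slow fibre mean, 0 changed direction under any alternative. Over all 33 genes, signs turned under at least 1 alternative for 15 genes for training in females, 9 in males, 7 in the mean, 7 in the interaction, and 10 by sex in non-trained and 3 in trained mice, 0 of them called. DESeq2 called more genes: 33 for training in females (1 member, Ugp2), 5 in males, 30 in the mean and 1 in the interaction, against 0, 0, 2 and 0, and 1465 by sex in non-trained (3 members, Fbp2, Pfkfb1 and Ugp2, all lower in males) and 1401 in trained mice (6 members), against 818 and 880. limma-voom called 0 genes in the mean of training. Without the low-count filter 1 gene passed in that mean and 558 by sex in trained mice (1 member), and Ldha lost its call (adjusted p = 0.0514). With the compared groups alone 448 genes and 0 members passed by sex in non-trained mice, and 6 members in trained mice. Scaling by library size alone called 2 members in non-trained mice (Gpi1 and Phka1, higher in males) and 4 in trained mice (Phkb higher, Eno3, Ldha and Pfkfb1 lower), and took the relation of Slc16a1 to the slow fibre mean in males past the threshold (r = 0.693, adjusted permutation p = 0.0463). It moved the median of all genes to 0.06 and 0.07 in the sex comparisons. The cause of these shifts was not tested.

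Leaving out 1 library gave 0 to 1 genes for training in females, 0 to 1 in males and 0 to 7 in the mean, 435 to 1038 genes and 0 to 2 members by sex in non-trained mice, and 494 to 1239 genes and 1 to 6 members in trained mice. Leaving out non-trained female library 5 or trained male library 3 took Pfkfb1 past the threshold in non-trained mice (lowest adjusted p = 0.0231), and leaving out non-trained female library 4 did so for Ldha (0.0312). The r of Slc16a1 ran from 0.341 to 0.491 over all libraries, 0.596 to 0.825 in males and 0.491 to 0.695 in females. No paired analysis was possible because the labels give no replicate numbers. With 5 libraries a group, a difference that missed the threshold is not shown to be absent.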
